A study of Sus scrofa with 12 samples.

Results

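The long loci described here are rows of a pig gene expression table whose status sets them apart from the Ensembl annotation and whose start and end lie at least 10000 bp apart. Rows named POL or LIN1_NYCCO, in capitals or small letters, were left out as transposon genes. Of 30012 loci in the table, 9092 had that status, 1373 of these reached the span, and 1282 remained without the transposon names. The 1067 long loci that reached 1 FPKM in 3 or more of the 12 libraries are the ones described. FPKM counts fragments per kilobase of transcript, relative to the mapped fragments of the library. The loci were thus chosen by their FPKM values, and that each was detected somewhere is not a finding. The other 215 did not reach that level: 77 of them had an FPKM of at least 1 in 1 or 2 libraries, and 0 were listed at 0 in all 12.

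Expression was measured by RNA-seq of polyA RNA in 12 libraries, 3 for each of 4 groups. The fibroblasts were fetal cells, taken at day 30 and used at passage 6. The embryonic stem cells (ESCs) were Parthenogenetic ESC-3 and Parthenogenetic ESC-7, here ESC3 and ESC7, and IVF-derived ESC-11, here ESC11. A parthenogenetic line derives from an egg activated without sperm and so holds maternal genomes only, whereas the IVF line has a maternal and a paternal genome. Per the labels, all 3 ESC lines grew on feeder cells in KO-DMEM with 15% KSR, 20 ng/mL FGF2, 5 ng/mL ActA, 1.5 µM CH and 2.5 µM IWR-1. Y-27632 at 10 µM was used around passaging, and cells carrying SSEA1 were collected on magnetic columns before RNA was extracted. Each line is 1 derivation, so a difference between lines cannot be told apart from a difference between the kinds of embryo they came from. The labels do not say whether replicate libraries stem from separate cultures, so a p-value here reflects the spread between libraries alone, and that spread may be technical.

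Transcript assembly joins reads into loci whether or not a gene model exists there. A long locus outside a gene model can be a long noncoding RNA, an unlisted part of a known gene such as a far untranslated end or an upstream exon, an antisense transcript, or a gene missing from an incomplete annotation. Long noncoding RNAs are known for their restriction to few cell types, and several lie in imprinted regions, where the copy inherited from 1 parent is silent.

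The working name of these rows, unannotated, held for only some of them. An Ensembl gene identifier was carried by 231 of the 1067 loci, a name taken from a Swiss-Prot protein match by 500, and neither by 336. Of the 231, 214 shared their identifier with a row of the annotation and overlapped it, 144 on the other strand and 70 on the same strand. In the 116 opposite-strand pairs with both rows tested, the long locus had the lower mean FPKM in 86, with a median of 2.77 against 16.0 for the annotated row. Whether the authors' counting used strand is not stated in the sources used here, so reads of such a pair cannot be told apart. Among the 500 with a protein name, 326 bore a name that an Ensembl row also had, and 135 of the 1067 shared their name with another long locus. These rows are therefore called long loci and not unannotated genes.

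Spans ran from 10006 to 705373 bp with a median of 33008 bp. The loci with an Ensembl identifier were the longest class, with a median of 64401 bp, against 30377 bp for those with a protein name and 28385 bp for those with neither. Chromosomes held 960 of them and unplaced scaffolds 107, or 10.0%, against 8.88% of the 12435 tested Ensembl rows. The plus strand held 540, the minus strand 521, and 6 had no strand. The median FPKM over 12 libraries was 4.43, against 13.3 for tested Ensembl rows and 4.44 for the 3952 tested loci of the same status under 10000 bp. By class the medians were 7.05 for protein names, 3.46 for Ensembl identifiers and 2.47 for loci with neither. A mean of at least 1000 was reached by 13 long loci and of at least 100 by 65, while 341 stayed under 2.

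The limits of the rule were not gaps in the data. Just below the span limit lay T131L_BOVIN at 9967 bp, and the nearest above it were XLOC_003161 at 10006 bp and XLOC_024502 at 10013 bp. At the level limit, C12orf56 and TLR5 had 0.990 and 0.997 FPKM in the third-ranked library and stayed out, and XLOC_028960 and XLOC_001839 had 1.001 and 1.002 and came in.

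Cell identity was checked on fixed marker genes. Of the pluripotency markers, 8 of 8 tested were higher in ESCs, where their summed FPKM was 2181 to 2465 against 1.45 to 1.98 in fibroblasts. Of the fibroblast markers, 9 of 9 were lower in ESCs, at a summed 54.0 to 79.7 against 12910 to 13130. In ESCs, markers of endoderm summed to 0.709 to 2.89, of endothelium and blood to 2.66 to 7.16, of muscle to 4.48 to 8.93 and of neural cells to 54.0 to 276. The trophectoderm sum, 0.558 to 24210 in ESCs, includes KRT7, which the table gives only on short loci, and 0 of 4 tested members of that list were higher in ESCs. Summed FPKM per library ran from 2376000 to 7715000. It was 2376000 to 3742000 in the ESC11 libraries, below all other ESC libraries, and 3281000 in 1 fibroblast library.

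Between ESCs and fibroblasts, 360 long loci were called higher in ESCs, where 28.1% of all 18278 tested loci were, and 183 were called lower, where 14.9% were. A call needs an adjusted p under 0.05 in limma and a difference of at least 1 in log2(FPKM + 1). The median log2 difference was 0.49 over the long loci and 0.44 over all tested loci. Of the long loci, 318 reached an FPKM of 1 in no fibroblast library and 66 in no ESC library. Entry in that way tilts a locus toward a difference but does not by itself make a call. In bulk RNA, fewer cells that use a locus and less RNA per cell cannot be told apart. The split of calls moved with the scaling of the libraries: 287 higher and 240 lower after median-ratio scaling, and 250 higher and 227 lower after quantile normalization. Of all tested loci, 39.6% and 38.1% were called in those fits, against 43.1% on the deposited scale. Those scalings brought the median of all tested loci from 0.44 to 0.07 and 0.10. Line by line, 339 were higher and 194 lower in ESC3 (28.6% and 15.5% of all tested loci), 388 and 163 in ESC7 (29.2% and 14.3%), and 339 and 191 in ESC11 (27.4% and 15.5%), each against the same fibroblast libraries.

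**Figure D1:**
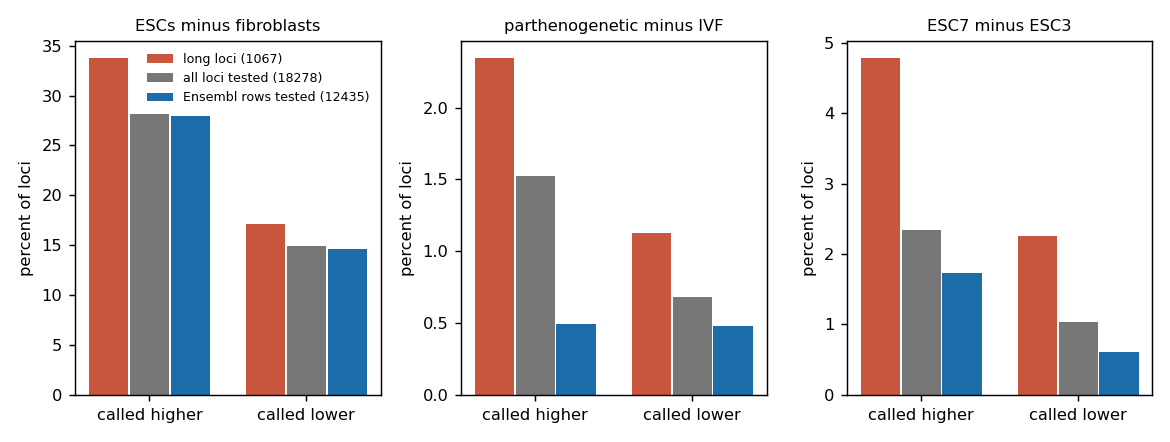
Percent of loci called higher or lower in 3 comparisons, for the 1067 long loci, all 18278 tested loci and the 12435 tested Ensembl rows. The long loci stand above the Ensembl rows in each direction, at 33.7% against 28.0% for loci higher in ESCs than in fibroblasts and 4.78% against 1.73% for loci higher in ESC7 than in ESC3.

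By span, the share called was 49.7% of the 360 loci from 10000 to 20000 bp, 49.2% of 323 up to 50000 bp, 48.4% of 192 up to 100000 bp and 58.3% of 192 above. Of all 18278 tested loci, 43.1% were called in either direction. By class, 62 of 231 loci with an Ensembl identifier were higher in ESCs and 28 lower. Protein-named loci gave 185 and 89 of 500, and loci with neither gave 113 and 66 of 336. Over all tested loci, 28.1% were higher and 14.9% lower.

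Several of the largest differences toward ESCs were on loci listed at 0 in all 3 fibroblast libraries. XLOC_025976, an unnamed locus on scaffold GL893815.1 (4081 to 40591, minus strand), had 2004, 2778 and 3364 FPKM in ESC3, 2469, 413 and 1738 in ESC7, with 347, 1232 and 549 in ESC11. All 9 ESC libraries were high and no fibroblast library had a value, although the ESC libraries differed widely among themselves. Its log2(FPKM + 1) difference was 10.30 ± 0.51 (SE, adjusted p = 7.67e-09 in limma). Against a group at 0 such a difference depends on the added 1 and is not a fold change, which holds for every locus below that is listed at 0 on 1 side. No Ensembl row lay on that scaffold.

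CHST9, named after a sulfotransferase that acts on sugar chains (GL896021.1, 16630 to 56968, plus strand), had 86.8, 81.2 and 117 FPKM in ESC3, 105, 108 and 112 in ESC7, 47.6, 48.7 and 51.9 in ESC11, and 0 in the fibroblasts. ESC11 was the lowest line, and the groups did not overlap. The log2 difference was 6.33 ± 0.09 (adjusted p = 3.71e-13). MAP7, named after a protein that binds microtubules (chromosome 1, 31194002 to 31246068, minus strand), had 1.64, 1.16 and 1.69 in fibroblasts and between 144 and 167 in the 9 ESC libraries. The level was nearly even over the lines, and the difference was 5.95 ± 0.07 (adjusted p = 7.41e-14). The nearest Ensembl row by start, 138756 bp away, was PDE7B, a phosphodiesterase gene, which had a mean of 1.27 FPKM in fibroblasts and 0.0369 to 0.109 in the lines and was called lower in ESCs.

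Some of the strongest loci lay beside an Ensembl row of the same name. TNFRSF1B, a receptor for tumour necrosis factor (chromosome 14, 146037786 to 146053632, plus strand), had 0, 0.189 and 0 FPKM in fibroblasts and between 40.8 and 79.4 in ESCs, with a difference of 5.82 ± 0.11 (adjusted p = 2.60e-12). The annotated TNFRSF1B row on the same strand, which it overlaps, stayed at or under a group mean of 0.248. Slc24a3, named after a sodium and calcium exchanger (chromosome 17, 30921161 to 31183652), was listed at 0 in fibroblasts and ran from 25.7 to 307 in ESCs (difference 6.41 ± 0.53, adjusted p = 6.65e-07). The SLC24A3 row 9004 bp away had means of 2.64 to 4.65 in the lines and was also listed at 0 in fibroblasts.

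XLOC_000184 has no name and overlaps RRAGD, a small GTPase of nutrient sensing, on the other strand (chromosome 1, 64213266 to 64291257, plus strand). It was listed at 0 in fibroblasts and had 50.2, 52.3 and 45.9 FPKM in ESC3, 72.1, 66.9 and 61.3 in ESC7, with 28.3, 58.0 and 45.2 in ESC11. All ESC libraries were above all fibroblast libraries (difference 5.72 ± 0.16, adjusted p = 7.79e-11). RRAGD itself had a mean of 0.499 in fibroblasts and 38.0 to 44.8 in the lines. Reads of the pair cannot be told apart without strand.

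SORCS2, named after a sorting receptor of neurons, had a difference of 5.94 ± 0.29 (adjusted p = 6.18e-09), with 52.3 to 136 FPKM in ESCs. The unnamed XLOC_025172 and XLOC_022730 were listed at 0 in fibroblasts and differed by 5.78 and 5.40. The locus Mbp, named after a myelin protein (chromosome 1, 163128001 to 163154667), had 0, 85.4 and 35.4 FPKM in fibroblasts and 292 to 2059 in ESCs. Its fibroblast libraries disagreed, and the difference of 5.72 ± 1.05 (adjusted p = 0.000407) became 3.78 without fibroblast library 1, the one at 0.

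**Figure D2:**
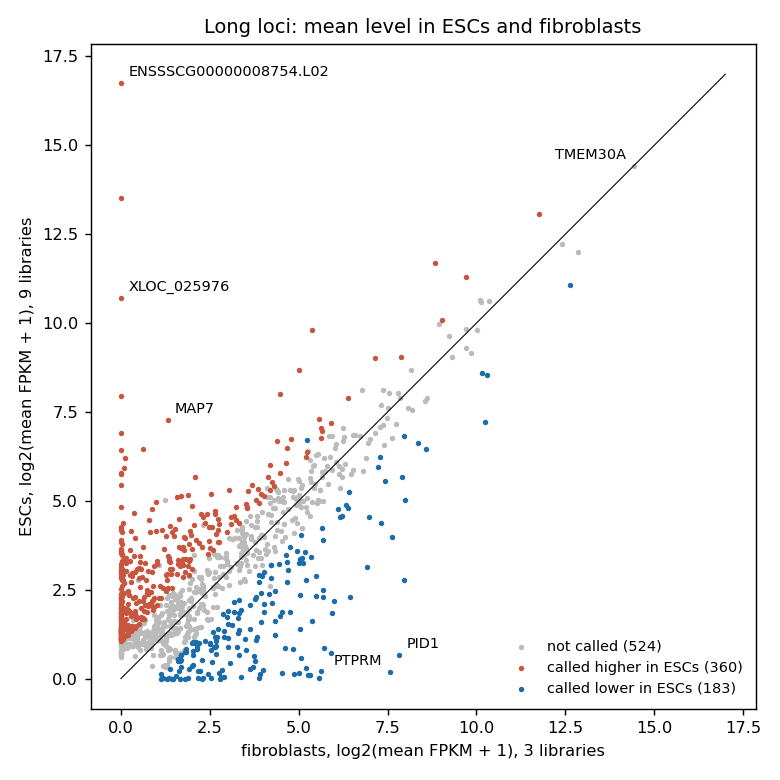
Mean level of each of the 1067 long loci in fibroblasts (horizontal, 3 libraries) and in ESCs (vertical, 9 libraries), both as log2(mean FPKM + 1), with the line of equal level. Points are coloured by call: 360 were higher in ESCs, 183 lower and 524 not called, and a column of ESC loci stands at 0 on the fibroblast axis.

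Toward fibroblasts, the largest differences were on PTPRM and PID1. PTPRM, named after a receptor phosphatase of cell contacts (chromosome 6, 92642591 to 92755342, minus strand), had 179, 163 and 220 FPKM in fibroblasts and at most 0.816 in ESCs. The log2 difference was -7.39 ± 0.19 (adjusted p = 3.90e-11). It lay opposite the annotated PTPRM row, which had a mean of 121 in fibroblasts and at most 0.0672 in a line, so the rows of both strands had the same pattern, and their reads cannot be told apart. PID1, named after a protein with a phosphotyrosine-binding domain (chromosome 15, 144242418 to 144256602, plus strand), had 221, 242 and 213 FPKM in fibroblasts. In ESCs its highest library had 2.54, in ESC3, and the difference was -7.30 ± 0.35 (adjusted p = 5.71e-09). Its nearest row by start, DNER, 197969 bp away, was higher in ESCs by 0.76, under the size needed for a call.

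XLOC_006286 (chromosome 13, 169207154 to 169304499, minus strand) had 46.2, 49.1 and 48.7 FPKM in fibroblasts and at most 0.433 in ESCs, a difference of -5.43 ± 0.04 (adjusted p = 1.01e-14). COL8A1, a short-chain collagen 112877 bp away on the other strand, fell with it, from a mean of 491 to 0.736 to 1.51. XLOC_005639 (chromosome 13, 212208904 to 212314019) had 50.5, 31.5 and 29.2 in fibroblasts and was listed at 0 in 8 of 9 ESC libraries, with 0.586 in the other. It lay 36915 bp from ERG, an ETS transcription factor gene of mean 12.5 in fibroblasts and at most 0.118 in a line.

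ADAMTSL3, Sema3d, MYLK and ANXA2R were named after a matrix protein, a guidance cue, the kinase of myosin light chain and a receptor for annexin A2. Their differences were -5.55 ± 0.08, -5.23 ± 0.07, -5.19 ± 0.09 and -4.95 ± 0.07. In 3 of these 4, all but MYLK, the nearest Ensembl row had the same name and was also called lower. MBOAT2, named after a lipid acyltransferase, and ENSSSCG00000009126.L01 were less even. MBOAT2 had 216, 264 and 105 FPKM in fibroblasts, but 58.5 in ESC7 library 3, 43.7 and 27.6 in 2 ESC11 libraries, and under 1 in the other 6 ESC libraries (difference -5.18 ± 1.17, adjusted p = 0.00166). ENSSSCG00000009126.L01 had 232 to 282 in fibroblasts and was listed at 0 in 7 of 9 ESC libraries, with 27.9 and 24.4 in the other two (difference -6.90 ± 1.17, adjusted p = 0.000224).

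By level alone, 77 long loci had an FPKM of at least 1 in every ESC library and under 0.1 in every fibroblast library, a share of 7.22%, where 3.54% of all tested loci did. The reverse held for 18, or 1.69%, where 1.14% of all tested loci did. All 12 libraries reached 1 for 517, or 48.45%, where 69.0% of all tested loci did. Of tested loci of the same status under 10000 bp, the shares were 3.57%, 1.80% and 48.76% in the same order. These classes carry no test. Among the ESC class were 2 loci named FRMPD4, a scaffold protein of synapses, on the X chromosome. XLOC_029069 (9700025 to 10222569) had 10.4 to 15.4 FPKM in ESC3, 25.7 to 30.6 in ESC7 and 13.3 to 17.1 in ESC11, and XLOC_029490 had 9.01 to 12.8, 21.9 to 26.1 and 13.4 to 16.3. Both were highest in ESC7. FBN3, a fibrillin, had 9.87 to 13.9 FPKM over the 9 ESC libraries, GREB1, an oestrogen-responsive gene, 8.62 to 14.3, and OVOL2, an epithelial zinc finger factor, 8.53 to 13.1.

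The fibroblast class was led by HOXB6, a homeobox gene of body axis position, with 14.3, 13.2 and 13.5 FPKM in fibroblasts and at most 0.0538 in ESCs. FAT4, a large cadherin, had 9.55, 9.35 and 9.48 against at most 0.0620. Of the 18 loci, 13 had no name. XLOC_006774 (chromosome 14, 17531540 to 17586707) lay 11 bp from HAND2, a transcription factor of heart and limb, and had 5.50, 5.88 and 6.39 in fibroblasts and 0 in all ESC libraries. XLOC_007911, 302 bp from the homeobox gene EMX2, had 1.98, 3.04 and 2.49 and was also listed at 0 in all 9.

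On the same sequence, 997 of the 1067 loci had an Ensembl row and 70 had none. The median distance between starts was 49383 bp, 117 starts lay within 10000 bp, 7 were over 1000000 bp away, and 217 spans overlapped the nearest row by start. That row had the same name in 258 cases. Of 247 loci higher in ESCs whose neighbour was tested, 125 neighbours were higher, 23 lower and 99 not called. Of 138 lower loci, 58 neighbours were lower, 21 higher and 59 not called. With a neighbour of the same name, 47 of 67 and 33 of 43 moved the same way, and with another name or none, 78 of 180 and 25 of 95 did. For scale, 36.6% of 2390 higher Ensembl rows and 29.6% of 1259 lower ones had a nearest Ensembl row called the same way. The differences between these shares were not tested.

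Long loci also overlapped each other, in 44 pairs over 75 loci, 32 of the pairs on opposite strands. Both were higher in ESCs in 18 pairs and both lower in 5, 1 was called in 6, neither was in 15, and 0 pairs were called in opposite directions. Members of such a pair can share reads and are not independent.

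Setting ESC3 and ESC7 against ESC11 asks which loci depend on a paternal genome or on the line. Over the mean of ESC3 and ESC7, 25 long loci were called higher than in ESC11, where 1.52% of all tested loci were, and 12 lower, where 0.678% were. The median log2 difference was 0.07 over the long loci and 0.02 over all. Loci with neither name nor identifier gave 19 of these 37 calls. Loci of the same status under 10000 bp were higher in 4.68% and lower in 1.21%, and tested Ensembl rows in 0.491% and 0.482%. After scaling all libraries to the same sum the split became 12 higher and 380 lower, and the median of all tested loci moved to -1.03, the ESC11 libraries having the lowest sums among ESC libraries. In that fit 54.9% of all tested loci were called, against 2.20% on the deposited scale. The loci below are given on the deposited scale. Each line alone gave 15 higher and 12 lower than ESC11 in ESC3, where 1.49% and 0.996% of all tested loci were, and 44 and 18 in ESC7, where 2.14% and 0.799% were.

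The largest difference was on XLOC_028022 (scaffold GL896379.1, 7595 to 19851, minus strand), 2970 bp from SNRPN on the same strand. SNRPN encodes a splicing protein and is a paternally expressed imprinted gene in mammals. XLOC_028022 had 36.6, 37.1 and 35.2 FPKM in fibroblasts and 309, 297 and 324 in ESC11. The ESC3 libraries had 0.400, 0.315 and 0.425, and the ESC7 libraries 0.0429, 0.682 and 0.252. All 6 parthenogenetic libraries were under 1, and neither ESC11 nor the fibroblasts overlapped them. The log2 difference of the parthenogenetic lines from ESC11 was -7.86 ± 0.12 (adjusted p = 4.81e-11). The SNRPN row followed the same order, with means of 27.4 in fibroblasts, 0.143 and 0.126 in ESC3 and ESC7, and 154 in ESC11.

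A second pair lay on chromosome 1 between UBE3A, a ubiquitin ligase gene, and MAGEL2, which is paternally expressed in mammals. XLOC_000476 (157998693 to 158011272, plus strand) had 0.380, 0.436 and 0.398 FPKM in fibroblasts, 0, 0 and 0.0268 in ESC3, 0 in all ESC7 libraries, and 17.1, 17.6 and 17.7 in ESC11. XLOC_001535 (157975052 to 158008059, minus strand) had 0.302, 0.197 and 0.261 in fibroblasts, 0 in all 6 parthenogenetic libraries, and 6.59, 6.34 and 6.28 in ESC11. ESC11 stood alone at both, and the fibroblasts held a low level that the parthenogenetic lines did not reach. The differences from ESC11 were -4.20 ± 0.04 (adjusted p = 2.06e-12) and -2.89 ± 0.04 (adjusted p = 3.51e-11).

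These loci overlap by 9367 bp on opposite strands and may share reads. UBE3A, 98826 bp from XLOC_000476, was even over the groups, with means of 37.7 in fibroblasts and 42.0, 45.2 and 44.9 in ESC3, ESC7 and ESC11. MAGEL2, 303531 bp away on the other side, had 21.4 in ESC3, 0.596 in ESC7 and 14.9 in ESC11, and MKRN3 had 2.56, 0.0156 and 1.85. The pair of long loci was at or near 0 in ESC3, in which MAGEL2 and MKRN3 had values.

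Another long locus lay in the region of DLK1, another imprinted domain of mammals. ENSSSCG00000020958.L02 (chromosome 7, 132049810 to 132164548, minus strand) ended 21141 bp from a DLK1 row, and an RTL1 row lay inside its span. It had 18.8, 16.6 and 16.9 FPKM in fibroblasts, 48.7, 54.2 and 58.3 in ESC3, 105, 109 and 108 in ESC7, with 30.2, 30.4 and 30.5 in ESC11. The 4 groups did not overlap, and both parthenogenetic lines were above ESC11, by 1.30 ± 0.06 on the log2 scale (adjusted p = 1.28e-07). After scaling to the same sum this was 0.13 (adjusted p = 0.681). The nearest DLK1 row was listed at 0 in all 12 libraries, and the RTL1 row had means of 0.215 to 0.495. The overlapping XLOC_021118, on the other strand, had means of 0.0546 in fibroblasts, 1.10 in ESC3, 1.08 in ESC7 and 0.256 in ESC11, a difference of 0.73 that was under the size for a call.

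**Figure D3:**
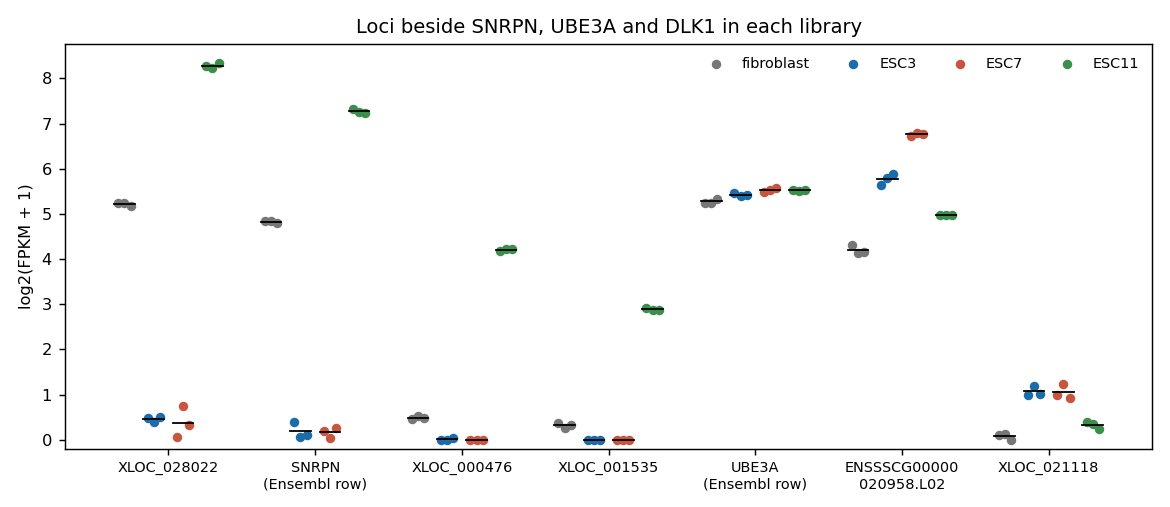
Level of 5 long loci and of the SNRPN and UBE3A rows in each library, as log2(FPKM + 1), with points for libraries and bars for group means. XLOC_028022 and SNRPN are low in ESC3 and ESC7 only, XLOC_000476 and XLOC_001535 are high in ESC11 only, and ENSSSCG00000020958.L02 is higher in both parthenogenetic lines than in ESC11.

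XLOC_001041 (chromosome 1, 312938968 to 312952368), 17568 bp from the glycosyltransferase gene MGAT4C, had 4.21, 3.50 and 3.05 FPKM in ESC11. It was listed at 0 in the 6 parthenogenetic libraries and had at most 0.275 in fibroblasts (difference -2.19 ± 0.08, adjusted p = 5.11e-08). With a pseudocount of 5, XLOC_001041 moved by less than the size for a call, at -0.78.

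Smaller differences from ESC11 were on XLOC_011492, XLOC_017323 and XLOC_011404, at -1.23, -1.07 and -1.06, and on XLOC_016235, at 1.24. With a pseudocount of 5 these became -0.59, -0.40, -0.41 and 0.74, all under the size for a call. After scaling to the same sum, XLOC_016235 was at 0.29 (adjusted p = 0.334 in limma). XLOC_016235 had 43.1 to 46.3 FPKM in fibroblasts, 3.42 to 7.63 in ESC3, 10.19 to 12.04 in ESC7 and 2.28 to 3.06 in ESC11. XLOC_011404 had 1.38 to 1.97 in ESC3, 0.240 to 0.462 in ESC7 and 2.64 to 3.53 in ESC11. Its difference from ESC11 was -0.96, under the size for a call, without ESC11 library 1.

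ESC7 and ESC3 share their origin from activated eggs. Between them 51 long loci were called higher in ESC7, where 2.34% of all tested loci were, and 24 lower, where 1.04% were. These were 4.78% and 2.25% of the long loci, and loci of the same status under 10000 bp were higher in 3.67% and lower in 1.90%. The median log2 difference was 0.08 over the long loci and 0.02 over all. Of loci with neither name nor identifier, 18 of 336 were higher in ESC7 and 2 lower. The split became 71 higher and 11 lower after scaling to the same sum and 41 higher and 30 lower after quantile normalization. Of all tested loci, 4.22% and 3.24% were called in those fits, against 3.38% on the deposited scale. On the X chromosome 4 of 31 long loci were higher in ESC7, or 12.9%, against 2.87% of 523 tested X loci, and these 4 lie in 2 places, so they are not 4 separate observations.

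The strongest of them were a pair on the X chromosome near CHIC1, overlapping by 13853 bp on opposite strands. XLOC_029657 (67151886 to 67179371, minus strand) had 85.4, 79.8 and 87.1 FPKM in fibroblasts, 110, 110 and 112 in ESC7, at most 0.0843 in ESC3 and at most 0.0472 in ESC11. XLOC_029260 (67165519 to 67184024, plus strand) had 26.2, 25.7 and 26.1 in fibroblasts, 32.5, 36.6 and 38.5 in ESC7, at most 0.0300 in ESC3 and at most 0.0226 in ESC11. Fibroblasts and ESC7 were high and the other two lines near 0 at both loci. ESC7 exceeded ESC3 by 6.74 ± 0.05 (adjusted p = 1.22e-13) and 5.17 ± 0.06 (adjusted p = 9.40e-12). CHIC1, the nearest Ensembl row at 46618 bp, had 4.82 in fibroblasts, 5.38 in ESC3, 7.09 in ESC7 and 5.51 in ESC11.

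A second tract, of 3 unnamed loci on chromosome 11 from 78785404 to 79328437, showed the same groups. XLOC_003515 had 1.16, 0.852 and 1.28 FPKM in fibroblasts, 24.4, 25.6 and 24.0 in ESC7, 0 in ESC3, and 0, 0 and 0.0205 in ESC11. XLOC_003302 had 3.66, 1.87 and 4.01 in fibroblasts, 28.5, 45.03 and 17.6 in ESC7, and 0 in ESC3 and ESC11. XLOC_003516 had 0.515, 7.81 and 1.03 in fibroblasts, 7.85, 7.22 and 24.8 in ESC7, and 0 in both other lines. ESC7 was above ESC3 and ESC11 in every library at all 3 loci, and it overlapped the fibroblasts only at XLOC_003516, where fibroblast library 2 lay between ESC7 values.

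The ESC7 minus ESC3 differences were 4.68 ± 0.07 (adjusted p = 5.79e-11), 4.88 ± 0.29 (adjusted p = 1.03e-06) and 3.63 ± 0.61 (adjusted p = 0.000968). The nearest Ensembl row was SLC10A2, a bile acid transporter, 156228 to 592229 bp away. In ESC7 these loci were above fibroblasts by 3.62, 2.85 and 2.04, and the X pair was above them by 0.39 and 0.45, under the size for a call.

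The last tract, on chromosome 10 from 15492571 to 16542030, held 4 loci named after heavy chains of axonemal dynein, the motor of cilia. DNAH6 (XLOC_002740) had 4.88, 4.62 and 5.54 FPKM in ESC7 and was listed at 0 in the other 9 libraries, a difference from ESC3 of 2.59 ± 0.06 (adjusted p = 7.97e-10). The 3 loci named DNAH14 had ESC7 means of 1.86, 1.92 and 3.98 and at most 0.0128 in any other group. ESC7 alone was high at all 4. In and beside the tract lie 2 rows named LIN9, a regulator of cell cycle genes, which had means of 31.7 to 42.8 and 10.3 to 11.9 with no call between the lines. Of 11 long loci named DNAH in the table, a count made after the values were seen, 5 were higher in ESCs than in fibroblasts. Of all tested loci, 28.1% were. The 4 of this tract were higher in ESC7 than in ESC3, where 2.34% of all tested loci were. These 4 lie together, so they are not 4 separate observations. Their group means outside ESC7 were at most 0.0128, so they entered the long loci through ESC7 libraries alone. Their count therefore cannot be weighed against the 2.34%.

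**Figure D4:**
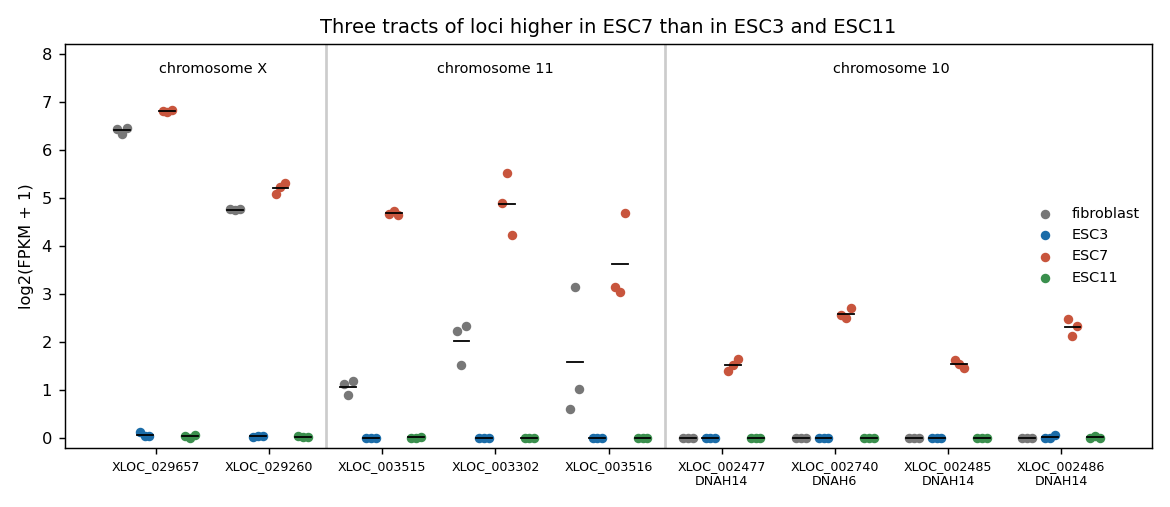
Level of 9 long loci of 3 tracts in each library, as log2(FPKM + 1), with points for libraries and bars for group means. The X chromosome pair is high in fibroblasts and ESC7, the chromosome 11 loci are highest in ESC7 with a lower level in fibroblasts, and the chromosome 10 loci are above 0.1 FPKM in ESC7 only.

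Elsewhere, MUC19, named after a secreted mucin (chromosome 5, 74708072 to 74743185, plus strand), had 16.5, 20.0 and 20.7 FPKM in ESC7, 1.06, 0.519 and 0.484 in ESC3, and at most 0.104 in ESC11 and fibroblasts. ESC7 was above every other library, by 3.58 ± 0.12 over ESC3 (adjusted p = 2.38e-08), and ESC3 was above ESC11. The annotated MUC19 row 6051 bp away had group means of at most 0.0365. BMPR1B, a receptor for bone morphogenetic proteins, carries an Ensembl identifier (ENSSSCG00000029621.L01, chromosome 8, 133442413 to 133819143, plus strand). It had 9.71, 8.97 and 10.4 in fibroblasts, 4.21, 3.36 and 4.12 in ESC3, 22.8, 24.2 and 22.3 in ESC7, with 11.9, 13.6 and 13.3 in ESC11. The 4 groups did not overlap, with ESC3 lowest and ESC7 highest, and the lines differed by 2.30 ± 0.08 (adjusted p = 2.38e-08). The overlapping BMPR1B row of the other strand had another order, with 24.9 in fibroblasts and 5.91, 4.37 and 3.30 in ESC3, ESC7 and ESC11.

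Loci lower in ESC7 included the one with the highest mean of all. The 2 loci of identifier ENSSSCG00000008754, paired with the symbol GBA3 of a cytosolic glucosidase, start 44 bp apart on opposite strands of chromosome 8 (17191741 to 17275994). The minus-strand locus had 232914, 55522 and 382242 FPKM in ESC3 and 52909, 205285 and 70157 in ESC11. The plus-strand locus had 26513, 18457 and 31529 in ESC3 and 6971, 14079 and 7176 in ESC11. Both were listed at 0 in all fibroblast and ESC7 libraries. Of the summed FPKM of a library, the pair held 0.997% to 5.42% in ESC3 and 2.04% to 5.86% in ESC11. The long loci as a whole held 1.23% to 1.60% in fibroblasts, 1.45% to 1.47% in ESC7, 2.24% to 6.78% in ESC3 and 3.66% to 7.54% in ESC11.

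The pair was as variable as it was high, with minus-strand means of 223559 ± 163561 in ESC3 and 109450 ± 83442 in ESC11 (SD, n = 3 each). The annotated row of identifier ENSSSCG00000008754 overlaps both loci of the pair. It was listed at 0 in all fibroblast, ESC3 and ESC11 libraries and had a mean of 0.0313 in ESC7. ENSSSCG00000008755.L01, a long locus that also overlaps the pair, was present in all lines, at means of 17.5, 21.9 and 11.7 in ESC3, ESC7 and ESC11. The difference of the plus-strand locus between ESC3 and ESC11, 1.48 (adjusted p = 0.00264), was -0.01 after quantile normalization (adjusted p = 0.992).

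Beside the zinc finger gene ZNF208 on chromosome 8, Znf22 (XLOC_022276) had means of 26.5 in ESC3, 6.90 in ESC7 and 23.3 in ESC11, and ENSSSCG00000008847.L03 had 27.0, 3.28 and 26.4. They were lower in ESC7 than in ESC3 by -1.83 ± 0.25 (adjusted p = 0.000288) and -3.17 ± 0.71 (adjusted p = 0.00541). SEC31B, named after a vesicle coat protein, had 0.745 to 0.992 in ESC7 and 3.58 to 4.56 in the other lines. ZNF850, named after a zinc finger protein, was lower in ESC3, with at most 0.0624 there, 1.85 to 2.34 in ESC7 and 2.64 to 3.06 in ESC11. With a pseudocount of 5, ESC7 differed from ESC3 and ESC11 at SEC31B by -0.64 and -0.63, under the size for a call. At ZNF850 that setting gave -0.65 for ESC3 minus ESC11 and 0.49 for ESC7 minus ESC3, also under it. GPC6, named after a cell surface proteoglycan, had 43.7 to 96.6 in ESC3 and 7.42 to 18.1 in ESC7, a difference of -2.48 (adjusted p = 0.00457).

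Some calls between lines were lost when 1 library was left out. PLXNA4, named after a semaphorin receptor, had 0, 84.3 and 0 FPKM in ESC3 and 90.2, 309 and 215 in ESC7 (difference 5.38, adjusted p = 0.0399). The call was lost in 9 of the 12 fits that left out 1 library, in which the adjusted p ran from 0.00379 to 0.133, and it was 0.00379 without ESC3 library 2. NMU, named after a neuropeptide, had 3.43, 1.36 and 6.43 in ESC3 and 0, 0.461 and 0.943 in ESC11 (difference 1.59, adjusted p = 0.0210), and that call was lost in 4 of the 12.

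A locus was counted as particular to a line where it was called in the same direction against each of the other two. In that sense 38 long loci were higher in 1 line, where 1.61% of all tested loci were, and 18 lower, where 1.43% were. ESC7 alone was higher at 27 long loci, where 0.859% of all tested loci were, a share of 2.53%, and 15 of the 27 had neither name nor identifier. Of tested loci of the same status under 10000 bp, 1.695% were higher in ESC7 alone. ESC7 alone was lower at 9 (0.323% of all tested loci). ESC3 alone was higher at 5 and lower at 3, where 0.388% and 0.481% of all were, and ESC11 alone was higher at 6 and lower at 6, where 0.367% and 0.629% were. The 6 loci higher in ESC11 alone all lacked a name: XLOC_028022, XLOC_000476, XLOC_001535, XLOC_001041, XLOC_011492 and XLOC_007953. Of the long loci, 23 reached an FPKM of 1 in ESC7 libraries alone, 4 in ESC3 alone and 5 in ESC11 alone. These had to differ in level, though not by the size for a call.

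**Figure D5:**
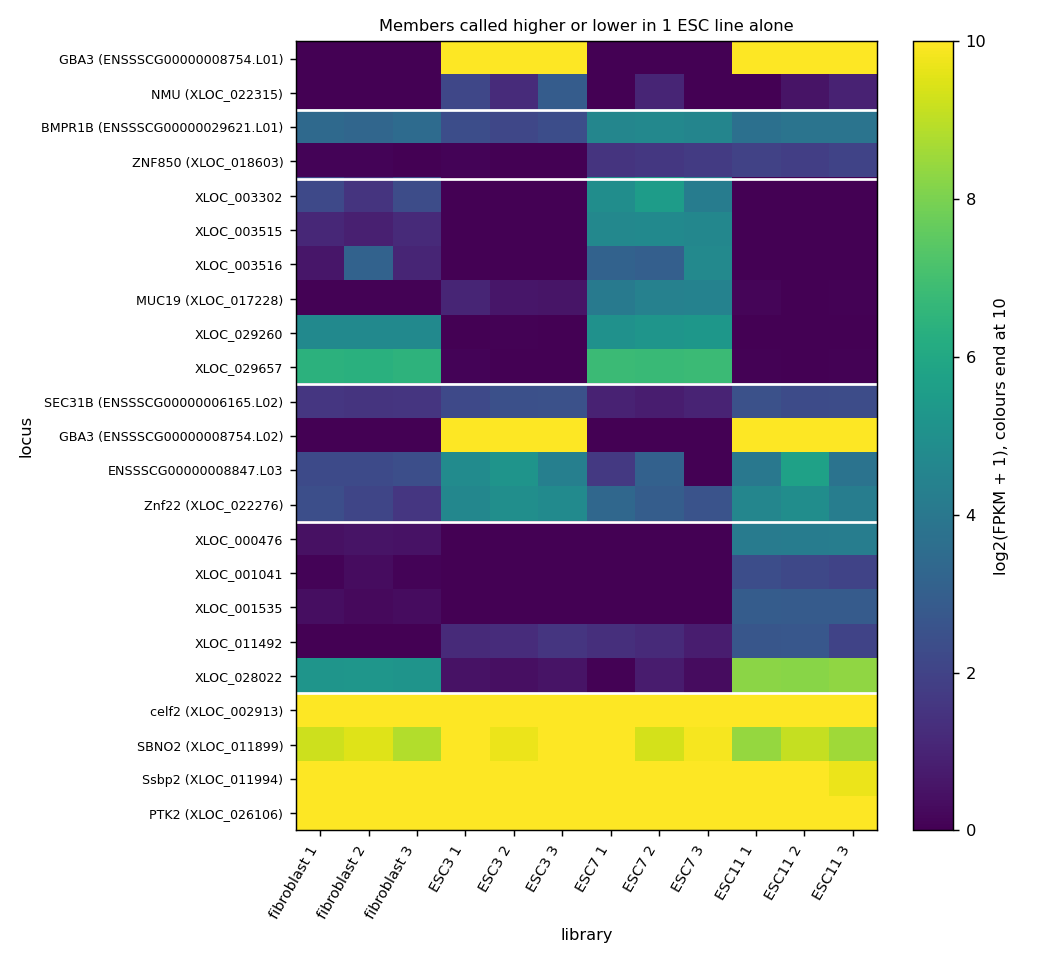
Level in each library, as log2(FPKM + 1) with colours ending at 10, of 23 long loci named by rule because they were called higher or lower in 1 ESC line alone. White lines part the sets: ESC3 higher, ESC3 lower, ESC7 higher, ESC7 lower, ESC11 higher and ESC11 lower. The upper GBA3 row is lower in ESC7 too, and the 4 rows of the last set are high in every library.

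Of the 6 loci lower in ESC11 alone, 4 were among abundant loci. PTK2, named after focal adhesion kinase, had 7721 to 12359 FPKM in the parthenogenetic lines, 3332 to 5043 in ESC11 and 1986 to 4505 in fibroblasts, a difference from ESC11 of 1.39 (adjusted p = 0.00567). celf2, named after an RNA-binding protein, differed by 1.42 (adjusted p = 0.00538) and SBNO2, after a transcriptional regulator, by 1.19 (adjusted p = 0.00581). Ssbp2, after a protein that binds single-stranded DNA, differed by 1.23 (adjusted p = 0.0314). The annotated CELF2 row, which overlaps celf2 on the same strand, had means of 23.4, 23.1 and 24.1 in ESC3, ESC7 and ESC11. The annotated SSBP2 row, 110207 bp from Ssbp2, had 4.92, 5.97 and 5.53. Neither annotated row was called in parthenogenetic minus IVF. The call of Ssbp2 was lost in 6 of the 12 fits that left out 1 library, namely ESC3 library 2 or 3, ESC7 library 1 or 3, or ESC11 library 1 or 3, and the adjusted p over the 12 ran from 0.0121 to 0.130. With ESC7 by itself set against ESC11, the calls of Ssbp2, celf2 and SBNO2 were lost in 7, 3 and 2 of the 12, and with ESC3 that of Ssbp2 in 7. For the mean of both lines against ESC11, all 4 calls were kept after median-ratio scaling and lost after quantile normalization, at 0.15 for PTK2, 0.44 for celf2, 0.53 for Ssbp2 and 0.81 for SBNO2. They were also lost after scaling to the same sum, at 0.20, 0.23, 0.04 and -0.00, a scaling that moved the median of all tested loci to -1.03. The ESC11 libraries had the lowest summed FPKM among the ESC libraries, and its part in the result was not tested.

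The 10 long loci with the highest mean over 12 libraries were the GBA3 pair, TMEM30A, PTK2, PAWR, celf2, Ssbp2, PYGB, PTPRF and PRKAR2B. TMEM30A, a subunit of lipid flippases (chromosome 1, 101659740 to 101690584), had 11607 to 29663 FPKM in fibroblasts, 24210 to 30597 in ESC3, 19083 to 37818 in ESC7 and 10666 to 15565 in ESC11, and the fibroblasts overlapped each line. PYGB, brain glycogen phosphorylase, had 200 to 616 in fibroblasts and 1464 to 4916 in ESCs, with no overlap. PAWR, a pro-apoptotic regulator, had 3612 to 6855 in fibroblasts and 2830 to 6988 in ESCs, which overlapped.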

How the data were processed

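The deposited table gives FPKM values made by the authors. Per the submitters' processing notes, the build was Sscrofa10.2, and the tools were Cufflinks 2.1.1 and STAR 2.4.0b, with no roles given. Per the labels' protocols, libraries were TruSeq and read as 100 bp paired ends. The file holds no counts, so depth is unknown. Use of strand and the handling of multiply mapped reads are not given in the sources used here. Coordinates are those of the table, on Sscrofa10.2.

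Values were used as log2(FPKM + 1) with no further scaling. The 18278 loci that reached 1 FPKM in 3 or more libraries were fitted with limma 3.58.1 in R 4.3.3, as 4 group means over 12 libraries with a variance trend. Tests were two-sided, p-values were adjusted by Benjamini-Hochberg over all tested loci, and a call needed an adjusted p below 0.05 and a log2 difference of 1 or more in size. Errors beside log2 differences are limma's standard errors, and ± beside FPKM is the SD between libraries. The script was tested on simulated data. The nearest Ensembl row is that on the same sequence by start, and gaps are between the nearest ends.

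Members, lists and comparisons were chosen with earlier results of these data known. Loci were named by rule: called members whose libraries do not overlap between the sides, with a higher group mean of 2 FPKM or more, ranked by difference. The rule took up to 10 per direction for ESCs against fibroblasts, 8 between parthenogenetic and IVF lines and between ESC7 and ESC3, and 6 per line, plus the 10 highest by mean and the loci at the span limit. The loci HOXB6, FAT4, FRMPD4, FBN3, GREB1, OVOL2, DNAH14, XLOC_006774, XLOC_007911, XLOC_007953, XLOC_021118 and ENSSSCG00000008755.L01 were chosen after their values were seen. Some loci that this rule takes are not reported here. Of 30 Ensembl identifiers without a name in the table, 7 had a symbol in the gene name table. Alternatives were pseudocounts of 0.1 and 5, no filter, no variance trend, 3 scalings, a replicate term, a longer span, other limits for absence, and leaving out each library. No genome was used, and no sequence is shown. Python 3.11.15 was used with matplotlib 3.10.9, numpy 2.4.6 and pandas 2.3.3.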

Additional observations from a re-analysis of the deposited data

Results flagged for a closer look

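At 5 of the 1067 long loci, 2 ESC lines were called in opposite directions against fibroblasts and called different from each other, where 0.186% of all 18278 tested loci were. The lines share the fibroblast libraries, so the difference between the lines, tested in limma, is the value to read. ESC7 exceeded ESC3 by 4.88 at XLOC_003302, 4.68 at XLOC_003515 and 3.63 at XLOC_003516, which lie in 1 tract of chromosome 11. Against fibroblasts these 3 loci were at 2.85, 3.62 and 2.04 in ESC7 and at -2.02, -1.06 and -1.59 in ESC3. BMPR1B differed by 2.30 between ESC7 and ESC3, being 1.17 above fibroblasts in ESC7, -1.13 from them in ESC3 and 0.38 above them in ESC11. XLOC_028022, beside SNRPN, differed by -7.90 between ESC7 and ESC11, at -4.84 in ESC7 and 3.06 in ESC11 against fibroblasts.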

How the results depend on the processing

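Of 92 differences of named loci, 58 kept their direction and call under all 20 alternatives of the fit. The other 34 lost the call in at least 1, 19 of them in 1 other than the pseudocount of 5, and 4 turned. The turns were Ssbp2 and SBNO2 in ESC3 minus ESC11 (-0.09 and -0.10) and SBNO2 in parthenogenetic minus IVF (-0.00), all scaled to the same sum, and GBA3 in ESC3 minus ESC11 (-0.01, quantile normalization). The cause was not tested. A pseudocount of 0.1 gave 45 higher and 24 lower long loci in parthenogenetic minus IVF, 89 and 40 in ESC7 minus ESC3, and 63 and 42 particular to a line, against 38 and 18. A pseudocount of 5 gave 154 and 102 in ESCs minus fibroblasts, 14 and 5, 10 and 9, and 12 and 10, in the same order. Of all tested loci, the pseudocount of 0.1 called 3.68% in parthenogenetic minus IVF and 6.28% in ESC7 minus ESC3. The pseudocount of 5 called 24.9% in ESCs minus fibroblasts, 1.23% in parthenogenetic minus IVF and 1.20% in ESC7 minus ESC3. With libraries scaled to 1 sum there were 12 and 380 in parthenogenetic minus IVF, 11 lower in ESC7 minus ESC3, and 212 and 51 particular to a line. In that fit 54.9% of all tested loci were called in parthenogenetic minus IVF and 4.22% in ESC7 minus ESC3. A span of at least 20000 bp, which leaves fewer loci, gave 239 higher in ESCs, 14 higher in the parthenogenetic lines, 25 and 11 particular to a line, 11 in fibroblasts alone and 338 in all libraries. With absence as a value of 0, 42 and 8 loci were in ESCs or fibroblasts alone, and with absence as under 0.5 FPKM, 117 and 40.

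Leaving out 1 library in turn gave 357 to 364 higher and 176 to 185 lower in ESCs, 18 to 26 and 12 to 14 in parthenogenetic minus IVF, and 48 to 55 and 22 to 27 in ESC7 minus ESC3. Replicate numbers are shared by the groups, but same-numbered libraries did not deviate together (correlations -0.09 to 0.0867), and only 2 libraries were closest to their own number. With a replicate block the counts were 361 and 183, 21 and 12, and 50 and 23, and Ssbp2 lost its call in parthenogenetic minus IVF (adjusted p = 0.0504). The depth is unknown, so no limit of detection can be given for a locus listed at 0.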
